A study of Mus musculus with 20 samples.

Results

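Transcript levels of 10 genes of the cyclin-dependent kinase (CDK) inhibitor and p53 pathways were examined in cultured mouse renal myofibroblasts. The genes are a list of names with no threshold on their values, drawn up with earlier results of these data known, and they are 10 of the 51826 genes in the count table. They comprise the CDK inhibitors Cdkn1a, Cdkn1b, Cdkn1c, Cdkn2a, Cdkn2b and Cdkn2c, and Trp53 with the p53 pathway genes Mdm2, Ccng1 and Gdf15. All 10 passed the filter of at least 5 counts in at least 5 libraries, as did 20407 genes in total. Myofibroblasts, the matrix-producing cells of fibrotic tissue, were grown out of minced kidney pieces from WT and WWP2-/- mice of strain C57BL/6J and used at the second passage. WWP2-/- mice lack WWP2, an E3 ubiquitin ligase, and cells of both genotypes were left untreated or were treated with TGFb1, the main profibrotic cytokine of the kidney. This gave 4 groups of 5 libraries, namely untreated WT, TGFb1-treated WT, untreated WWP2-/- and TGFb1-treated WWP2-/-. The labels give neither the sex nor the age of the mice, and they do not say whether libraries of a group came from separate mice, so that the p-values measure the spread between these libraries.

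CDK inhibitors stop the division cycle by binding the kinases that drive it. The Cip/Kip proteins p21 (Cdkn1a), p27 (Cdkn1b) and p57 (Cdkn1c) bind complexes of cyclins with CDKs, whereas the Ink4 proteins p16 (Cdkn2a), p15 (Cdkn2b) and p18 (Cdkn2c) bind CDK4 and CDK6 and so keep the retinoblastoma protein active. The Cdkn2a locus also encodes p19Arf, which protects p53 by binding its ubiquitin ligase Mdm2. p53 (Trp53) is a stress-activated transcription factor, and Cdkn1a, Mdm2, Ccng1 and Gdf15 are among its established target genes. In cultured fibroblasts a rise of p16 and p21 with loss of division is the usual sign of senescence, and p15 is a known target of TGFb1 signaling in epithelial cells.

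Promoter windows from RefSeq (GRCm38.p6), each reaching from 250 bases before to 50 bases after an annotated start, were found for 9 of the 10 genes, in 13 windows. A p53 half-site, the 10-base motif of which a pair makes up a p53 response element, was searched on both strands together with CAGAC, the letters of a Smad-binding element, and GGGCGG, the core of an Sp1 site. No matches of different motifs overlapped. Half-sites were found in 4 of the 13 windows, those of Cdkn1a, Mdm2, Ccng1 and Trp53, against 8.36% of all 32851 windows in the table. GGGCGG was found in 7 of 13 windows against 35.7% of all windows, and CAGAC in 7 of 13 against 49.6%. A match is a description of letters and not a bound site. The windows of the p53 targets whose levels are compared with each other below are shown first, with all matches in capitals. They lie at chr17:29090729-29091028 (plus strand), chr10:117710709-117711008 (minus strand) and chr11:40755237-40755536 (minus strand).
Cdkn1a: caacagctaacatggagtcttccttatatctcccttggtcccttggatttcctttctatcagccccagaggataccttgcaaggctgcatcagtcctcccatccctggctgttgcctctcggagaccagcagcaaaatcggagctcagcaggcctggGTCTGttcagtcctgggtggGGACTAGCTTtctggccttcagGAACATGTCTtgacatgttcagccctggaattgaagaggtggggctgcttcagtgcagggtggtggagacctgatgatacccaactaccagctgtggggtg
Mdm2: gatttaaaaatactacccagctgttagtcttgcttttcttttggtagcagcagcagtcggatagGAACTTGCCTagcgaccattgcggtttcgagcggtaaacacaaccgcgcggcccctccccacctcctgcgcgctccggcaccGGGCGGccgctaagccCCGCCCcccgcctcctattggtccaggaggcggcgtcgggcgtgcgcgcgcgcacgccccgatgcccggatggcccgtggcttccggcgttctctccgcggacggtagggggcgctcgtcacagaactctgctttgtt
Ccng1: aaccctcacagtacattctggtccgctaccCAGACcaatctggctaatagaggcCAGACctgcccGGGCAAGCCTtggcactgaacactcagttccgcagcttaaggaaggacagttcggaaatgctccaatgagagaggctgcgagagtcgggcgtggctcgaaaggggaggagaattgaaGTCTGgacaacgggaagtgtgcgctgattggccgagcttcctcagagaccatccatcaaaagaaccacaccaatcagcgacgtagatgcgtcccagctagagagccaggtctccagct
The Cdkn1a window is that of the upstream of its 2 annotated starts, and its half-sites begin 73 and 51 bases before that start. The half-site of Mdm2 begins 186 bases and that of Ccng1 185 bases before the start. The windows of Cdkn1b at chr6:134920151-134920450 (plus strand) and of the upstream start of Cdkn2c at chr4:109666707-109667006 (minus strand) are shown because these 2 genes had lower levels in treated WWP2-/- cells. Neither holds a p53 half-site or CAGAC. Cdkn1b has 1 match to GGGCGG and Cdkn2c has 4.
Cdkn1b: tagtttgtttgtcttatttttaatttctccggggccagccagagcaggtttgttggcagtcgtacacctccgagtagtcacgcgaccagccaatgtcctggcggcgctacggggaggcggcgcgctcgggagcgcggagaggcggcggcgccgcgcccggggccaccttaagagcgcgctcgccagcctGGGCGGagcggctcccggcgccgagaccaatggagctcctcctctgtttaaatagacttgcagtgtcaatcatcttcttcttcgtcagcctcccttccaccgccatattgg
Cdkn2c: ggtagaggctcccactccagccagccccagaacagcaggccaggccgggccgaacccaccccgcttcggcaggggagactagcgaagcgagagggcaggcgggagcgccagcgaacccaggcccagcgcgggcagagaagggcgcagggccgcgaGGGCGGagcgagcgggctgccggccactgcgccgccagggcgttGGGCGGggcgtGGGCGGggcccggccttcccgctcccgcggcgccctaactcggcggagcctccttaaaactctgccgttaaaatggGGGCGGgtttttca

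Libraries held between 47520759 and 73063697 counts (median 55863325), so that 3 counts, the most that a count of 0 allows, were at most 0.0631 CPM, the count scaled to the depth of the library. Levels are given as CPM scaled by the TMM factors of edgeR, and differences as log2 fold changes with their standard errors (SE) from edgeR's quasi-likelihood test, with p-values adjusted over all 20407 genes. The knockout was visible in every library, with Wwp2 at 17.0 to 22.7 CPM in the 10 WWP2-/- and at 49.99 to 59.85 CPM in the 10 WT libraries. Transcripts of both sexes were present. Xist, which female cells transcribe from their inactive X chromosome, exceeded 1 CPM in 11 of 20 libraries and the sum of 4 Y-linked genes did so in 14, with both in 5. The Xist-containing libraries were 4 treated WT, 1 treated WWP2-/-, 4 untreated WT and 2 untreated WWP2-/- libraries. Untreated WWP2-/- replicate 3 and TGFb1-treated WWP2-/- replicate 1 stood apart from the rest. Their median Spearman correlation with the other libraries was 0.923 and 0.925, against 0.942 to 0.973 elsewhere, and Acta2, the smooth muscle actin that marks myofibroblasts, was at 38.9 and 50.4 CPM against 1016 to 3430 CPM in the other 18. Of 8 fibroblast markers, Col1a1, Col1a2, Col3a1, Pdgfrb, Vim and Dcn were above 1 CPM in every library, whereas Pdgfra was below 1 CPM in 7 libraries and Lum in 10. In bulk libraries fewer cells of a type and less RNA per cell cannot be told apart.

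Per transcript length the 10 genes spanned a wide range of levels. Mean levels over the 20 libraries in TPM, which also divides by exon length, were 1029 ± 208 (SD) for Ccng1, 809 ± 667 for Gdf15, 695 ± 176 for Cdkn2a and 673 ± 164 for Cdkn1a, whose ranges over the libraries overlapped. Cdkn2b at 326.5 ± 132 TPM and Mdm2 at 272 ± 108 TPM followed and also overlapped. Trp53 at 99.3 ± 19.7 TPM, Cdkn1b at 53.8 ± 6.69 TPM and Cdkn2c at 23.5 ± 7.69 TPM were in ranges separate from each other. The lowest Trp53 library (70.4 TPM) was above the highest Cdkn1b library (65.1 TPM). The lowest Cdkn1b library (44.8 TPM) was above the highest Cdkn2c library (38.4 TPM). Trp53 was not separate from the genes above it, since its highest library (146.6 TPM) exceeded the lowest Mdm2 library (140.6 TPM). Cdkn1c had the lowest mean, 21.2 ± 18.8 TPM, which was within the spread of Cdkn2c. Cdkn2a, which is nearly silent in young tissue, was therefore among the higher members in all 4 groups (510.8 to 820.8 TPM on average), with the counts of its p16 and p19Arf transcripts pooled. The genes differed as much in how far they varied. From the lowest to the highest library, Cdkn1b spanned 1.67-fold and Trp53 2.01-fold, whereas Cdkn1c spanned 26.9-fold and Gdf15 32.6-fold.

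**Figure D1:**
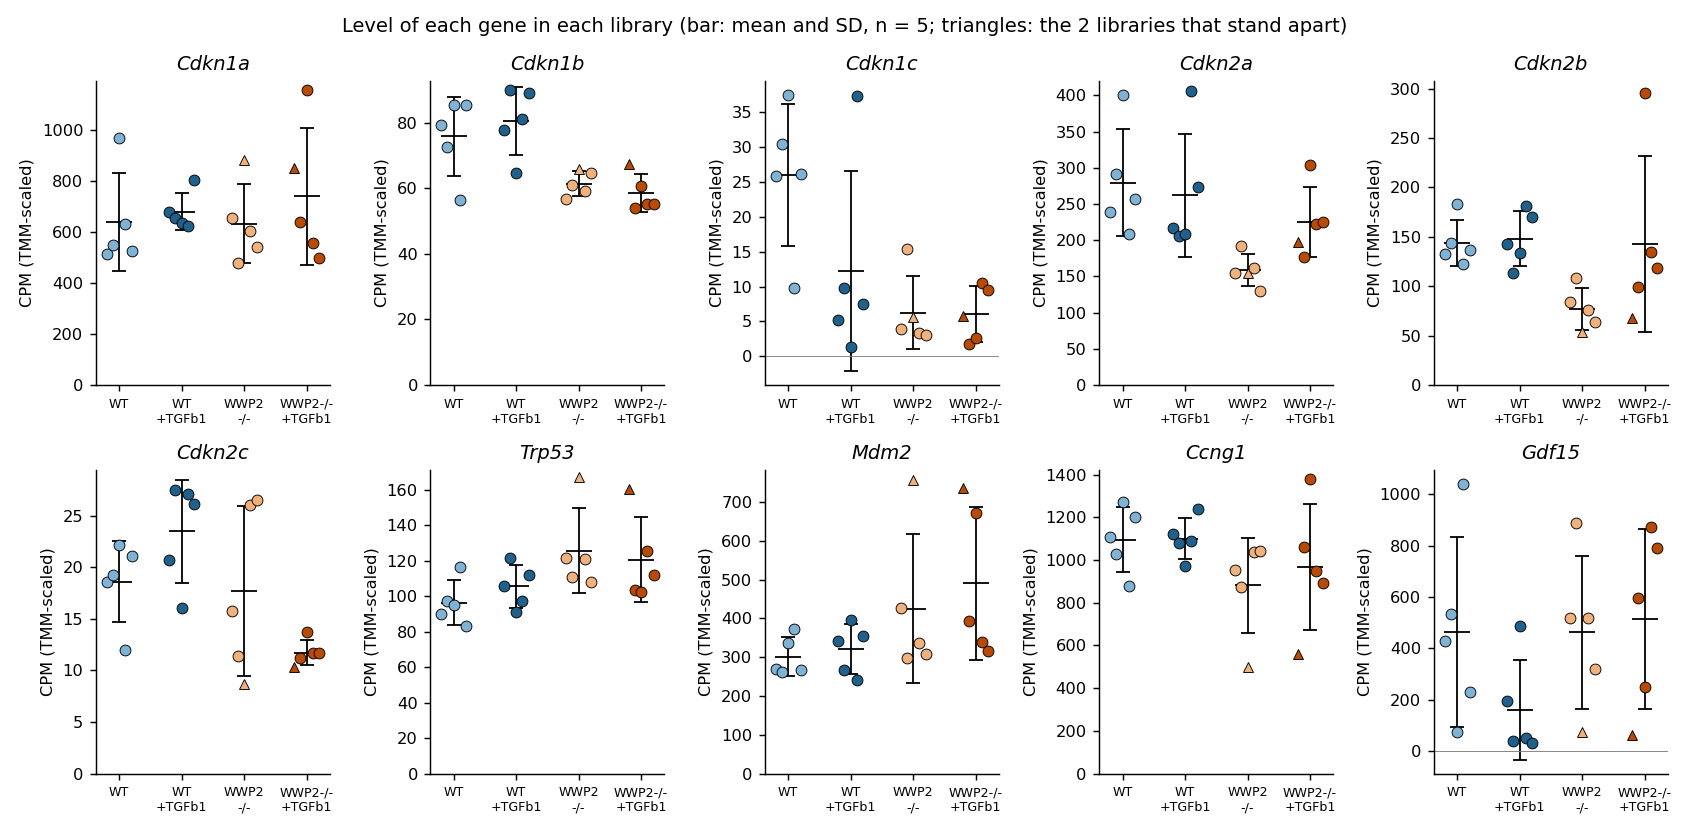
CPM (TMM-scaled, vertical axes starting at or below 0) of each of the 10 genes in each of the 20 libraries, by group, with the mean and SD of 5 libraries; triangles mark the 2 WWP2-/- libraries that stand apart. Cdkn2c lies at 10.4 to 13.7 CPM in treated WWP2-/- libraries, below all 5 treated WT libraries, and the triangles are at the top for Mdm2 and Trp53 and at the bottom for Ccng1.

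Whether loss of WWP2 changed these genes in TGFb1-treated cells was asked first. Cdkn1b and Cdkn2c fell in WWP2-/- cells, and no member passed as higher, although 4 of 10 had a positive log2 fold change. These 2 of 10 genes passed an adjusted p of 0.05 with edgeR, against 6.07% of all genes tested, and both were also called by the Wald test of DESeq2, by which 13.1% of all genes passed. At an unadjusted p below 0.05 there were 3 of 10 members, against 24.7% of all genes. The median log2 fold change of the members was −0.12, and that of all genes was 0.05.

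Cdkn2c, which encodes p18, was at 20.7, 27.5, 16.0, 27.1 and 26.1 CPM in treated WT replicates 1 to 5, and at 10.4, 11.2, 13.7, 11.7 and 11.7 CPM in treated WWP2-/- replicates 1 to 5. All WWP2-/- libraries lay below all WT libraries. Groups that did not overlap, in either direction, were seen for 1 member and for 5.67% of all genes. The mean was 11.7 ± 1.24 CPM against 23.5 ± 4.99 CPM (SD over the 5 libraries of each group), a log2 fold change of −1.0 (SE 0.26, adjusted p = 0.0323, edgeR). The WT library nearest to the WWP2-/- range was replicate 3, the only treated WT library without Xist. Without Xist, the 4 WWP2-/- libraries were at 11.2 to 13.7 CPM and that WT library at 16.0 CPM, and with Xist the single WWP2-/- library, replicate 1, which is one of those that stand apart, was at 10.4 CPM and the 4 WT libraries at 20.7 to 27.5 CPM. With Xist as a covariate the log2 fold change was −1.02 (adjusted p = 0.0730, edgeR), and with a score of 10 proliferation genes as a covariate it was −0.56 (adjusted p = 0.116, edgeR).

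Cdkn1b, which encodes p27, was at 77.9, 89.8, 64.5, 81.0 and 89.2 CPM in treated WT replicates 1 to 5, and at 67.5, 53.9, 60.7, 55.3 and 55.3 CPM in treated WWP2-/- replicates 1 to 5. The groups overlapped at 1 library each, since WT replicate 3 lay below WWP2-/- replicate 1, which is one of the libraries that stand apart. The mean was 58.6 ± 5.66 CPM against 80.5 ± 10.3 CPM (SD over the 5 libraries of each group), a log2 fold change of −0.46 (SE 0.11, adjusted p = 0.0264, edgeR). Without both libraries that stand apart it was −0.52 (adjusted p = 0.0134, edgeR). With Xist as a covariate it was −0.28 (adjusted p = 0.0946, edgeR), and among libraries without Xist the 4 WWP2-/- libraries were at 53.9 to 60.7 CPM and the WT library at 64.5 CPM. With Xist the single WWP2-/- library was at 67.5 CPM and the 4 WT libraries were at 77.9 to 89.8 CPM. Over all 20 libraries Cdkn1b was at 65.8 to 89.8 CPM in the 6 with Xist only. The 5 with both Xist and Y-linked transcripts were at 56.6 to 85.5 CPM. The 9 with Y-linked transcripts only were at 53.9 to 64.7 CPM. The part of Xist in the Cdkn1b difference was not tested beyond the covariate fit. The call of each of the 2 genes was kept in 9 of 19 alternative fits. Among fits that leave out 1 library, both calls were lost without WT replicate 2, 4 or 5 or without WWP2-/- replicate 2, 4 or 5, with adjusted p-values up to 0.0835 (edgeR), and that of Cdkn2c was also lost without WT replicate 1.

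The other CDK inhibitors did not pass in treated cells. Cdkn1a had a log2 fold change of 0.12 (SE 0.23, adjusted p = 0.789, edgeR), at 739 ± 268 CPM in WWP2-/- cells against 679 ± 73.4 CPM in WT cells (SD over the 5 libraries of each group). Its highest level in any library was 1155 CPM in WWP2-/- replicate 3, and without that library the log2 fold change was −0.11. Cdkn2a was at 225 ± 48.3 against 262 ± 85.0 CPM (SD over 5 libraries; log2 fold change −0.22, SE 0.21, adjusted p = 0.543, edgeR). Cdkn2b was at 143 ± 88.9 against 148 ± 27.5 CPM (SD over 5 libraries; log2 fold change −0.05, SE 0.29, adjusted p = 0.939, edgeR), and its WWP2-/- values of 67.4, 98.9, 295.5, 134.7 and 118.0 CPM reached below and above the WT range of 113.4 to 181.7 CPM. Cdkn1c, the p57 gene, was at 5.83, 1.81, 2.60, 10.6 and 9.50 CPM in WWP2-/- replicates 1 to 5, with a log2 fold change of −1.01 (SE 0.69, adjusted p = 0.388, edgeR). In treated WT cells Cdkn1c was at 37.4 CPM in replicate 4 and at 1.40 to 9.78 CPM in the other 4 libraries, and without replicate 4 its log2 fold change was 0.02.

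Of the p53 pathway genes, none passed in treated cells. Trp53 itself was at 121 ± 24.0 CPM in WWP2-/- cells against 105.5 ± 12.1 CPM in WT cells (SD over 5 libraries; log2 fold change 0.19, SE 0.14, adjusted p = 0.430, edgeR). Mdm2, the ubiquitin ligase that degrades p53, was at 736, 393, 671, 339 and 315 CPM in WWP2-/- replicates 1 to 5, and at 342, 267, 396, 242 and 356 CPM in WT replicates 1 to 5. The groups overlapped, with WWP2-/- replicates 1 and 3 above every WT library, and the log2 fold change was 0.61 (SE 0.27, unadjusted p = 0.0380, adjusted p = 0.175, edgeR). Without both libraries that stand apart it was 0.42 (adjusted p = 0.176, edgeR). Ccng1, which encodes cyclin G1, was at 558 CPM in WWP2-/- replicate 1 and at 890.5 to 1378 CPM in the other 4, against 971 to 1240 CPM in WT cells, which gave a log2 fold change of −0.18 (SE 0.21, adjusted p = 0.635, edgeR).

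Gdf15, a secreted stress cytokine of the TGFb superfamily, had the largest difference among the members in treated cells and also the largest error. It was at 60.8, 595, 248, 873 and 792 CPM in WWP2-/- replicates 1 to 5 and at 196, 38.0, 487.5, 49.1 and 32.0 CPM in WT replicates 1 to 5. The log2 fold change was 1.68 (SE 0.86, adjusted p = 0.232, edgeR), and it was 2.71 without WT replicate 3 (adjusted p = 0.0495, edgeR) and 0.37 with Xist as a covariate (adjusted p = 0.786, edgeR). Over all 20 libraries, Gdf15 was at 32.0 to 76.0 CPM in the 6 with Xist only, at 196 to 535 CPM in the 5 with both Xist and Y-linked transcripts, and at 248 to 1042 CPM in the 9 with Y-linked transcripts only. No library of the first class reached the others. The 6 macrophage markers, summed, were at 56.6 and 60.7 CPM in the 2 treated WT libraries with the lowest Gdf15. The sum was 3658 CPM in the untreated WT library with the highest Gdf15. The order was not kept throughout, since treated WT replicate 4 had a sum of 289 CPM with Gdf15 at 49.1 CPM. Treated WT replicate 1 had a sum of 122 CPM with Gdf15 at 196 CPM. By group the macrophage sum ranged from 56.6 to 393 CPM in treated WT, 68.8 to 3218 CPM in treated WWP2-/-, 141 to 3658 CPM in untreated WT and 73.2 to 1598 CPM in untreated WWP2-/- libraries, and none of the 6 markers was below 0.1 CPM in all libraries of a group. The sum of 8 tubular epithelial markers ranged from 18.8 to 98.1 CPM in treated WT and from 5.71 to 369 CPM in treated WWP2-/- libraries, with 2 and 1 of the 8 below 0.1 CPM throughout. The part of these cells and of Xist in the levels of Gdf15 was not tested.

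**Figure D2:**
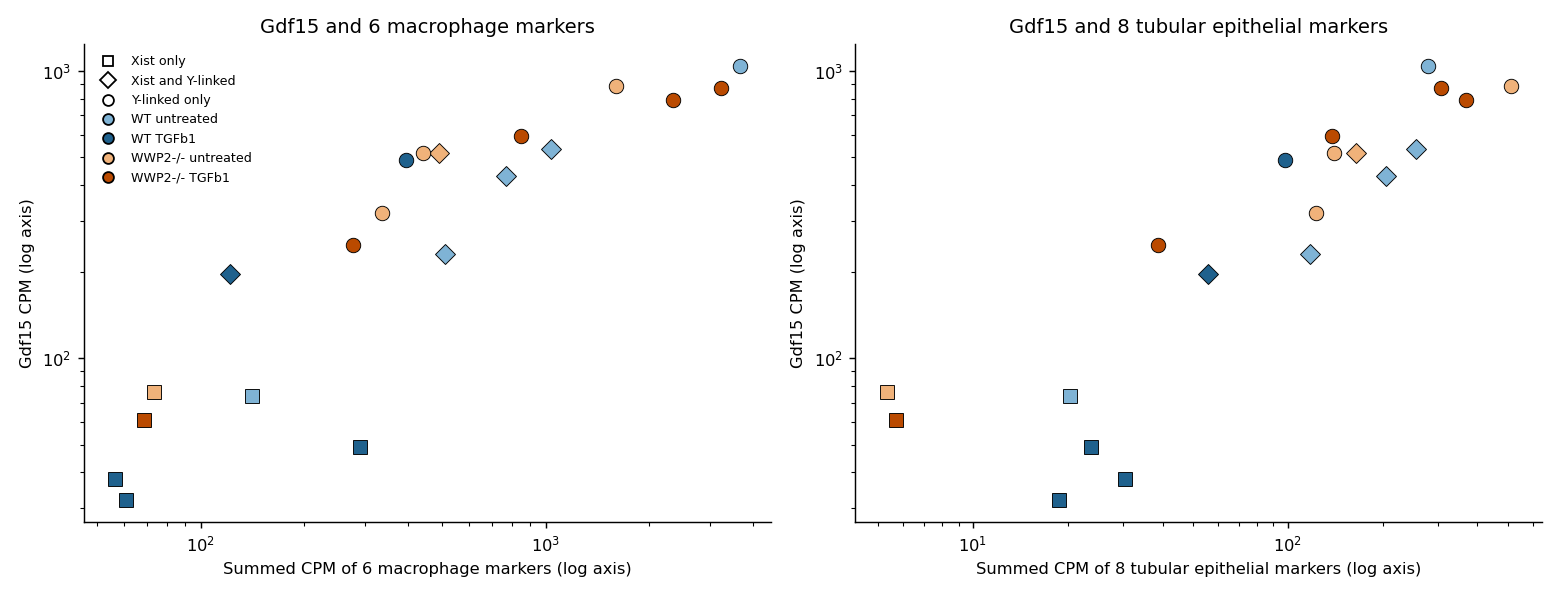
Gdf15 CPM (vertical, log axis) against the summed CPM of 6 macrophage markers (left) and of 8 tubular epithelial markers (right, log axes) in each of 20 libraries; squares have Xist only, diamonds both Xist and Y-linked transcripts and circles Y-linked transcripts only. The squares lie at or below 76.0 CPM of Gdf15 and the circles at or above 248 CPM.

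In untreated cells the question was whether the genotypes differed before TGFb1. No member passed with edgeR, against 0.725% of all genes, whereas 5 of 10 had an unadjusted p below 0.05, against 14.9% of all genes. The Wald test of DESeq2 called 1 of 10, Cdkn2a, against 3.64% of all genes. Cdkn2a and Cdkn2b were the 2 members whose groups did not overlap, which held for 2.79% of all genes. The median log2 fold change of the members was −0.19 and that of all genes 0.08.

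Cdkn2a and Cdkn2b are neighbours on chromosome 4 (GRCm38, 89274471 to 89294653 and 89306299 to 89311039, both on the minus strand). Cdkn2a was at 239, 291.5, 400.1, 209 and 256 CPM in untreated WT replicates 1 to 5 and at 155, 192, 155, 161 and 129.6 CPM in untreated WWP2-/- replicates 1 to 5. Every WWP2-/- library was below every WT library, with a log2 fold change of −0.82 (SE 0.21, adjusted p = 0.0814, edgeR; adjusted p = 0.0105, DESeq2). Cdkn2b was at 133, 144, 184, 122 and 136 CPM in WT and at 83.8, 108.3, 53.2, 76.0 and 64.0 CPM in WWP2-/- replicates 1 to 5. Its log2 fold change was −0.90 (SE 0.29, adjusted p = 0.171, edgeR; adjusted p = 0.0712, DESeq2). Without both libraries that stand apart, the log2 fold changes were −0.83 for Cdkn2a and −0.82 for Cdkn2b. Leaving out untreated WT replicate 4, the WT library without Xist, brought Cdkn2a to an adjusted p of 0.0230 and Cdkn1b to 0.0363 (edgeR). With Xist as a covariate the log2 fold change of Cdkn2a was −0.76 (adjusted p = 0.108, edgeR). That of Cdkn1b was −0.16 (adjusted p = 0.313, edgeR). Without Xist, Cdkn1b was at 59.2 to 64.7 CPM in 3 WWP2-/- libraries and at 56.3 CPM in the WT library. With Xist it was at 56.6 to 65.8 CPM in 2 WWP2-/- libraries and at 72.6 to 85.5 CPM in 4 WT libraries.

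Among the remaining CDK inhibitors, Cdkn1c was at 25.9, 30.4, 37.5, 9.76 and 26.2 CPM in untreated WT and at 3.88, 15.4, 5.68, 3.32 and 3.04 CPM in untreated WWP2-/- replicates 1 to 5. Only WT replicate 4 and WWP2-/- replicate 2 crossed, and the log2 fold change was −2.05 (SE 0.71, adjusted p = 0.201, edgeR; adjusted p = 0.0532, DESeq2). Cdkn1b was at 61.4 ± 3.81 CPM in WWP2-/- cells against 75.8 ± 12.1 CPM in WT cells (SD over 5 libraries; log2 fold change −0.30, SE 0.11, adjusted p = 0.235, edgeR). Cdkn1a was at 631 ± 155 and 637 ± 191 CPM (SD over 5 libraries; log2 fold change −0.01, SE 0.23, adjusted p = 0.983, edgeR), with its sign changing between fits. Cdkn2c, called with TGFb1, had a log2 fold change of −0.07 (SE 0.26, adjusted p = 0.915, edgeR), and its WWP2-/- libraries at 15.8, 11.4, 8.74, 26.1 and 26.5 CPM lay on both sides of the WT range of 12.02 to 22.1 CPM.

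Trp53 was at 121, 111, 167, 121 and 108 CPM in untreated WWP2-/- replicates 1 to 5 and at 89.8, 97.3, 95.0, 117 and 83.1 CPM in untreated WT replicates 1 to 5. Apart from WT replicate 4 the WWP2-/- libraries were the higher ones, and the log2 fold change was 0.38 (SE 0.14, adjusted p = 0.233, edgeR). Mdm2 was at 757 CPM in WWP2-/- replicate 3 and at 298 to 427 CPM in the other 4, against 263 to 373 CPM in WT (log2 fold change 0.49, SE 0.27, adjusted p = 0.406, edgeR). Without both libraries that stand apart, the log2 fold change was 0.23 for Trp53 and 0.16 for Mdm2. Ccng1 was at 501 CPM in WWP2-/- replicate 3 and at 873 to 1042 CPM in the other 4, against 877 to 1271 CPM in WT (log2 fold change −0.31, SE 0.21, adjusted p = 0.497, edgeR). Gdf15 was at 463 ± 298 CPM in WWP2-/- cells against 462 ± 370 CPM in WT cells (SD over 5 libraries; log2 fold change 0.0041, SE 0.83, adjusted p = 0.998, edgeR).

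**Figure D3:**
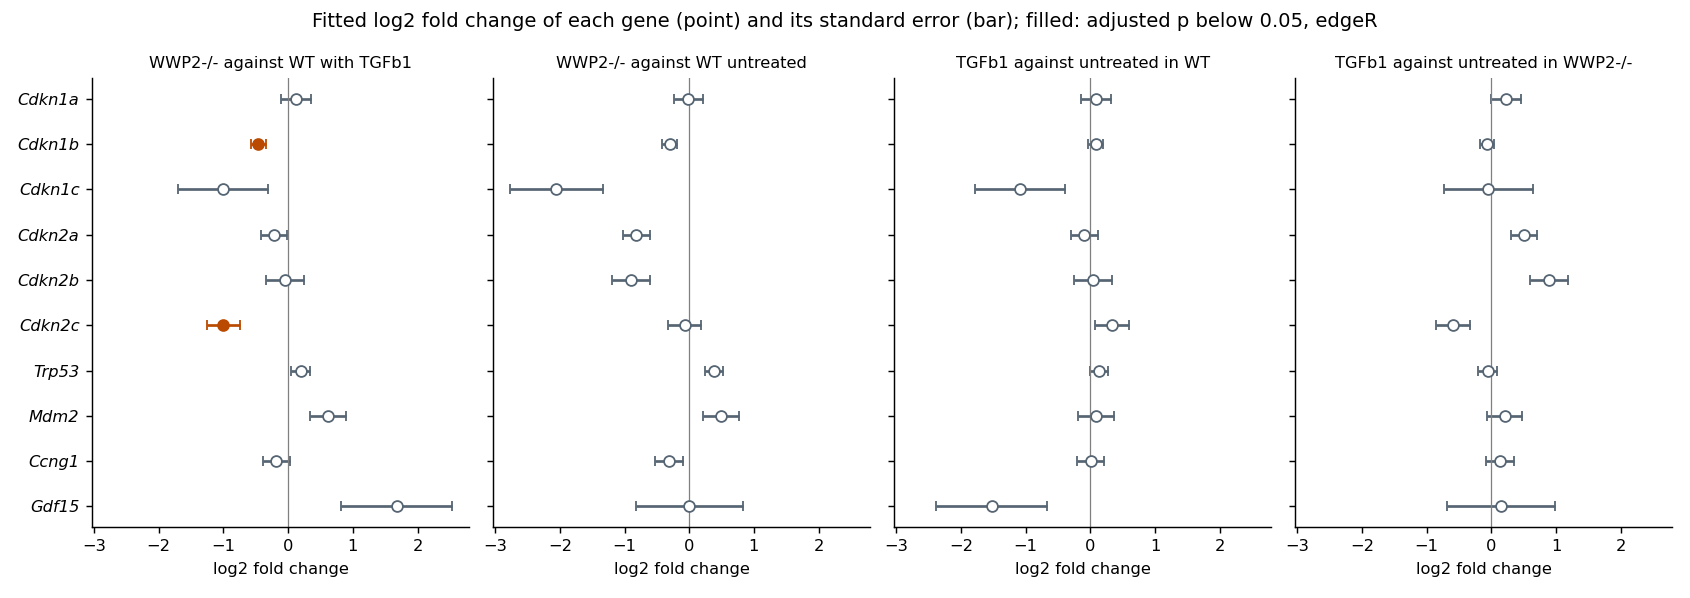
Fitted log2 fold change (horizontal axis) of each of the 10 genes in 4 comparisons, with its standard error as a bar; filled points have an adjusted p below 0.05 (edgeR). Cdkn1b and Cdkn2c in treated cells are the filled points, and Gdf15 and Cdkn1c have the widest bars.

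The libraries that stand apart shared 1 profile of these genes, whatever their treatment. In untreated WWP2-/- replicate 3 and treated WWP2-/- replicate 1, respectively, Mdm2 was at 757 and 736 CPM against 298 to 671 CPM in the other 8 WWP2-/- libraries. Trp53 was at 167 and 160 CPM against 102 to 126 CPM, whereas Ccng1 was at 501 and 558 CPM against 873 to 1378 CPM. Cdkn2c was at 8.74 and 10.4 CPM against 11.2 to 26.5 CPM, and Gdf15 at 76.0 and 60.8 CPM against 248 to 886 CPM. These 2 were also the only WWP2-/- libraries with Xist and no Y-linked transcripts, and the 4 WT libraries of that class, which do not stand apart, had Gdf15 in the same low range. Cdkn1a, at 883 and 851 CPM, was within the range of the others, 478 to 1155 CPM. The proliferation gene Mki67 was at 0.604 and 1.03 CPM against 2.74 to 51.3 CPM. The score of 10 proliferation genes did not set both apart. It was −0.997 in untreated replicate 3, the lowest of its group. In treated replicate 1 it was −0.80, the median of a group that ranged from −1.27 to −0.28. Il6, a cytokine of the senescence-associated secretory phenotype, was at 63.9 and 68.3 CPM against at most 9.83 CPM, and Ccl2, a chemokine of that list, at 2003 and 2257 CPM against at most 348 CPM. Mki67, Il6 and Ccl2 were picked to describe these libraries after their values were seen.

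TGFb1 against untreated cells gave 0 calls among the members in WT cells with edgeR and 0 with DESeq2, against 0.0% and 0.132% of all genes. None of the 10 had an unadjusted p below 0.05 in WT cells, against 6.85% of all genes. The largest WT differences were those of Gdf15 (log2 fold change −1.53, SE 0.85, adjusted p = 0.814, edgeR), which was between −2.55 and −0.98 over 19 alternative fits, and Cdkn1c (−1.08, SE 0.69, adjusted p = 0.864, edgeR). In WWP2-/- cells the calls were again 0 with edgeR (0.0% of all genes) and 0 with DESeq2 (0.291% of all genes), whereas 3 of 10 members had an unadjusted p below 0.05, against 3.49% of all genes. These 3 were Ink4 genes. Cdkn2b had a log2 fold change of 0.89 (SE 0.29, unadjusted p = 0.00699, adjusted p = 0.820, edgeR), with treated replicates 3, 4 and 5 at 295.5, 134.7 and 118.0 CPM above the untreated range of 53.2 to 108.3 CPM and replicates 1 and 2 within it. Cdkn2a had one of 0.50 (SE 0.21, unadjusted p = 0.0248, adjusted p = 1.0, edgeR) and Cdkn2c one of −0.59 (SE 0.26, unadjusted p = 0.0347, adjusted p = 1.0, edgeR). The genotype and treatment comparisons share their libraries, so that the low untreated WWP2-/- values of Cdkn2a and Cdkn2b enter both. The 2 groups overlapped for every member in both treatment comparisons.

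Whether the effect of genotype differed with TGFb1 was tested as an interaction. No member passed with edgeR (0.0% of all genes) or with DESeq2 (0.049% of all genes), and 1 of 10 had an unadjusted p below 0.05, against 6.98% of all genes. This was Cdkn2c, with a difference of log2 fold changes of −0.93 (SE 0.37, unadjusted p = 0.0208, adjusted p = 0.599, edgeR). Cdkn2b had 0.85 (SE 0.41, adjusted p = 0.733, edgeR) and Cdkn2a 0.60 (SE 0.29, adjusted p = 0.733, edgeR). The genotype difference of Cdkn2c with TGFb1 was thus not shown to differ from that in untreated cells, nor were those of Cdkn2a and Cdkn2b.

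Relations among the members were examined over the 20 libraries after subtracting group means from log2(CPM + 1), with 100000 permutations of libraries within groups, two-sided, and adjustment over the 9 relations computed. Cdkn1a and Mdm2 rose and fell together within groups, with Pearson r = 0.81 (permutation p = 0.00029, adjusted p = 0.00261) and Spearman rho = 0.81 (permutation p = 7e-05, adjusted p = 0.00063). Without the 2 libraries farthest from the median of Cdkn1a, r was 0.88. Within the 10 untreated libraries r was 0.78 (adjusted permutation p = 0.0243) and within the 10 treated libraries 0.83 (adjusted permutation p = 0.154). Cdkn1a and Ccng1, whose promoter windows both hold p53 half-sites, had r = −0.04 (permutation p = 0.899, adjusted p = 0.899) and rho = 0.07 (permutation p = 0.795, adjusted p = 0.987). Without the 2 libraries farthest from the median of Cdkn1a, r was −0.56. Without both libraries that stand apart, a fit chosen after seeing the data, r was 0.71 (adjusted permutation p = 0.0441), so that the sign depends on which libraries are left out. Mdm2 and Ccng1 had r = −0.48 (permutation p = 0.105, adjusted p = 0.237) and rho = −0.22 (permutation p = 0.402, adjusted p = 0.760), and r was 0.15 without the 2 libraries farthest from the median of Mdm2, which are those that stand apart.

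**Figure D4:**
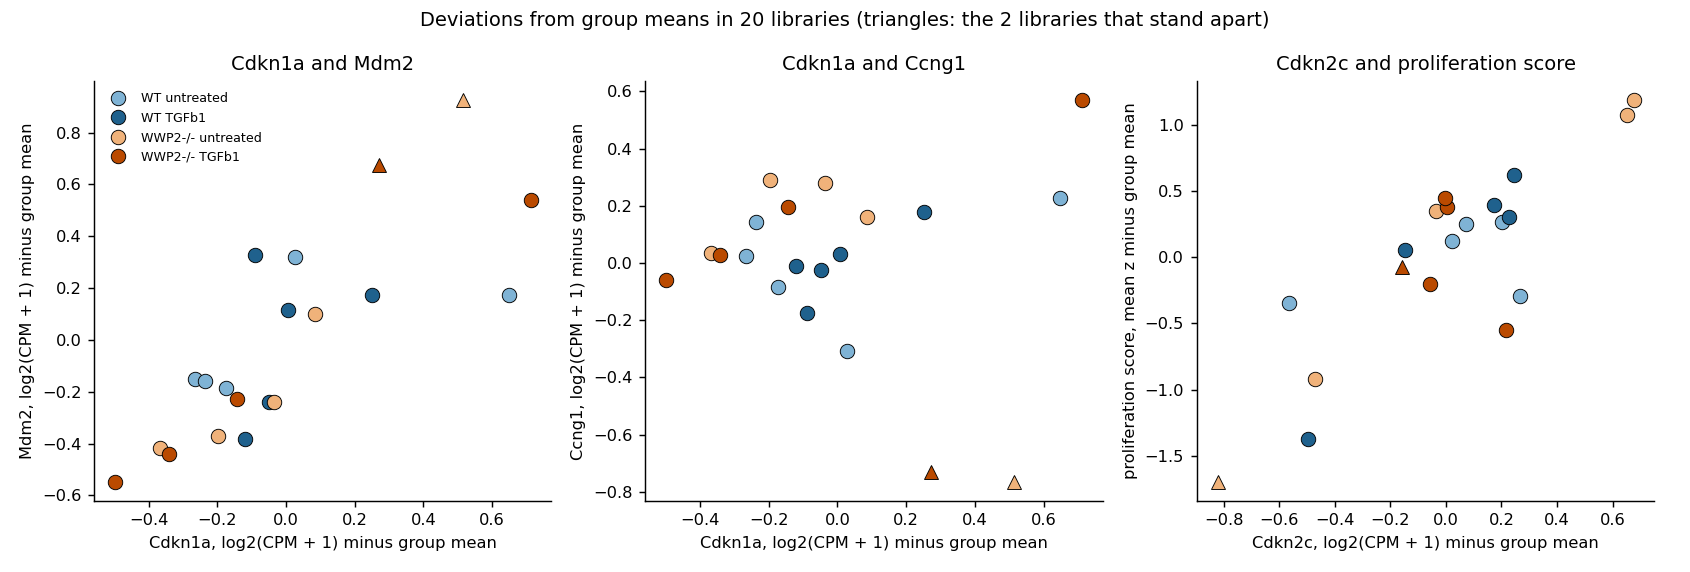
Deviations from the group mean in 20 libraries for Cdkn1a and Mdm2 (left), Cdkn1a and Ccng1 (middle), both in log2(CPM + 1), and Cdkn2c and the proliferation score (right, mean z-score of 10 genes); triangles are the 2 libraries that stand apart. Mdm2 rises with Cdkn1a (r = 0.81), the triangles lie far below the rest for Ccng1, and the score rises with Cdkn2c (r = 0.84).

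Each of the 6 CDK inhibitors was compared in the same way with the proliferation score, the mean z-score of Mki67, Top2a, Ccna2, Ccnb1, Cdk1, Aurkb, Bub1, Pcna, Mcm2 and Mcm5. Cdkn2c was the only one whose relation passed, and its level was higher where the score was higher, with r = 0.84 (permutation p = 0.000800, adjusted p = 0.00360) and rho = 0.67 (permutation p = 0.00809, adjusted p = 0.0364). Without the 2 libraries farthest from the median of Cdkn2c, r was 0.73. It was 0.91 within the untreated libraries (adjusted permutation p = 0.0243) and 0.70 within the treated libraries (adjusted permutation p = 0.277). The score was −0.80 in the median treated WWP2-/- library and 0.43 in the median treated WT library, and Cdkn2c was lower in the former group. In untreated cells the median score was 1.05 in WWP2-/- and 0.022 in WT libraries, where the log2 fold change of Cdkn2c was −0.07. With the score as a covariate it was −0.56 in untreated cells (adjusted p = 0.0892, edgeR). In treated cells it was also −0.56 with this covariate (adjusted p = 0.116, edgeR). The part of the score in the Cdkn2c difference was not tested beyond the covariate fit. Cdkn1a, the best known inhibitor of division among them, had r = −0.37 (permutation p = 0.0802, adjusted p = 0.237) and rho = −0.33 (permutation p = 0.174, adjusted p = 0.523). For Cdkn1b, Cdkn1c, Cdkn2a and Cdkn2b, r was between −0.07 and 0.21, with adjusted permutation p-values of 0.484 to 0.899, and rho was between 0.0045 and 0.20 with adjusted permutation p-values of 0.760 to 0.987. For Cdkn1b and Cdkn1c r was −0.12 and −0.13 without the 2 farthest libraries.

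Over all 20 libraries and 13519 genes of at least 1 CPM on average, the genes most like Cdkn1a in log2(CPM + 1) were Nxph4 (r = 0.92), Dok1 (r = 0.92) and Rgs12 (r = 0.90). Those most like Cdkn2a were C1galt1c1 (r = 0.92), Pmm1 (r = 0.88) and 1110012L19Rik (r = 0.87). Pmm1 encodes a phosphomannomutase and was at 87.6 CPM on average in untreated WT and 67.4 CPM in untreated WWP2-/- libraries. Those most like Cdkn2b were Gtse1 (r = 0.86), Mbnl1 (r = 0.86) and Dynlt3 (r = 0.85). Mbnl1, a splicing regulator, was at 165 CPM on average in untreated WT and 106 CPM in untreated WWP2-/- libraries. These are descriptions over libraries that share groups.

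In treated WWP2-/- cells, other genes of the same pathways passed in small numbers, to be read against the 6.07% of all genes. Of 17 other CDK, cyclin, RB and E2F genes 0 were higher and 1 was lower, the D-type cyclin Ccnd3, which partners CDK4 and CDK6. Ccnd3 was at 178, 229, 120, 259 and 209 CPM in treated WT and at 92.2, 122, 107, 104 and 102 CPM in treated WWP2-/- replicates 1 to 5 (log2 fold change −0.92, SE 0.21, adjusted p = 0.0168, edgeR). WT replicate 3 was again the lowest of its group. Of 13 tested p53 regulators, such as Mdm4, Atm and Chek2, 0 changed, with a median log2 fold change of 0.06. Of 30 other p53 target genes, such as Bax, Fas, Sesn1 and Zmat3, 0 were higher and 1 was lower, the phosphatase gene Ptp4a3 (35.4 ± 10.7 against 69.8 ± 20.9 CPM, SD over 5 libraries; log2 fold change −0.98, SE 0.28, adjusted p = 0.0450, edgeR). Their median for WWP2-/- against WT was −0.04 among treated cells, and among untreated cells 0 of 30 changed with a median of −0.16. In these 3 lists 0 genes passed in untreated cells, with TGFb1 in either genotype or in the interaction.

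Of 20 genes of secreted factors associated with senescence, 2 were higher and 3 lower in treated WWP2-/- cells, where 2.1% of all genes were higher and 3.96% lower, and the median log2 fold change was 0.52. Of the higher ones Il1a, a cytokine, was low throughout, at 0.282 to 4.885 CPM against 0.0605 to 0.459 CPM (log2 fold change 3.18, SE 0.87, adjusted p = 0.0379, edgeR). Igfbp3, an insulin-like growth factor binding protein, had a log2 fold change of −5.88 (SE 1.35, adjusted p = 0.0177, edgeR), at 14.3 to 201 CPM in treated WWP2-/- libraries and at 3214 to 5967 CPM in 4 treated WT libraries, with 15.1 CPM in WT replicate 3, so that the groups overlapped. Igfbp4 was lower in WWP2-/- than in WT cells on the log2 scale, by 2.92 among treated cells (SE 0.63, adjusted p = 0.0141, edgeR) and by 3.0 among untreated cells (SE 0.63, adjusted p = 0.0395, edgeR). The groups overlapped in neither comparison, and among untreated cells Igfbp4 was the 1 of 20 that changed. Among untreated cells, 15 of the 20 had a positive and 5 a negative log2 fold change. The median was 1.45, and that of all genes was 0.08. Untreated WWP2-/- replicate 3, which stands apart, had Il6 and Ccl2 of this list at 63.9 and 2003 CPM. The 8 WWP2-/- libraries that do not stand apart had at most 9.83 and 348 CPM. The median of the list without that library was not computed.

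Of 6 genes lost or gained in senescence, such as the lamin Lmnb1 and Glb1, 1 was higher in treated WWP2-/- than in treated WT cells. This was the transcription factor gene Bhlhe40 (log2 fold change 1.10, SE 0.27, adjusted p = 0.0243, edgeR). Among untreated cells 0 of the 6 differed between the genotypes. Of the 10 proliferation genes 0 passed in any comparison. Their median log2 fold change was −1.25 in treated and 1.23 in untreated WWP2-/- cells, 0.41 for TGFb1 in WT and −2.0 for TGFb1 in WWP2-/- cells, where all 10 were negative. Of the TGFb1 response genes, Postn, a matrix protein gene, was lower in treated WWP2-/- cells (log2 fold change −2.44, SE 0.68, adjusted p = 0.0407, edgeR), whereas 0 passed for TGFb1 against untreated in either genotype. Of the 8 fibroblast markers, 2 were lower in treated WWP2-/- than in treated WT cells. These were Col1a2 (log2 fold change −2.63, SE 0.57, adjusted p = 0.0142, edgeR) and Col1a1 (−1.98, SE 0.58, adjusted p = 0.0492, edgeR). The 5 endothelial markers summed to 28.8 to 156 CPM in treated WT and 7.61 to 141 CPM in treated WWP2-/- libraries. Of the 5, 3 had positive and 2 negative log2 fold changes in either genotype comparison, with medians of 0.40 with TGFb1 and 0.46 untreated. The negative ones were Tek and Kdr. Tek was lower in WWP2-/- cells in both comparisons (log2 fold change −2.87 among treated and −3.32 among untreated cells, adjusted p = 0.0135 and 0.0230, edgeR). Kdr passed as lower among treated cells (−1.76, adjusted p = 0.0351, edgeR). The 6 macrophage markers were all positive in treated WWP2-/- cells with a median log2 fold change of 2.49, and 0 of 6 passed.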

How the data were processed

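Poly-A-selected libraries gave paired reads, which the authors mapped with STAR (genome GRCm38), and they deposited raw exon counts per gene made by featureCounts. Versions and the strand setting are not given in the sources used here, so that reads of a gene and an antisense partner cannot be told apart. Of the members, Cdkn1a shares 273 exon bases with an opposite-strand model and Cdkn1c 625 with Gm44732, which had 1 count in all libraries. Groups and replicate numbers came from the labels. Symbols, positions and exon lengths came from GENCODE M21.

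A gene was kept when 5 or more libraries had 5 or more counts. A single edgeR 4.0.16 model (glmQLFit, glmQLFTest; R 4.3.3) held the TMM-scaled counts of the 20 libraries in their 4 groups, without a block, and p-values were adjusted by the Benjamini-Hochberg method over 20407 genes. The scripts were first tested on simulated counts. DESeq2 1.42.0 was an alternative, as were its size factors, other filters, a fit of only the groups compared, the replicate number as a block, Xist or the proliferation score as a covariate, each library left out, and, chosen after seeing the data, both libraries that stand apart left out. Relations were computed in Python. The limit of 0.0631 CPM covers counting error only, whereas the SEs and SDs include the spread between libraries.

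The members and lists were chosen with earlier results of these data known. Named genes were the 10 members, Wwp2 and Xist as checks, per other list and comparison at most the 3 genes of largest change with an adjusted p below 0.05, and the 3 genes of highest Pearson r with Cdkn1a, Cdkn2a and Cdkn2b. Acta2, Mki67, Il6 and Ccl2 were named to describe libraries. The values of 1 list gene are not reported here.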

Additional observations from a re-analysis of the deposited data

Results flagged for a closer look

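Within groups of 5 libraries, 40 combinations of gene and group were examined for a library far from the others, and 5 were found. The rule gives about 1 in 20 for independent, normally distributed values. CPM of genes measured in the same libraries need not be such values, so that no excess over chance is shown. All 5 lay above the rest of their group. Cdkn1a in untreated WT replicate 3 was at 969 CPM, against 514 to 630 CPM in the other 4 libraries. Cdkn1c in TGFb1-treated WT replicate 4 was at 37.4 CPM, against 1.40 to 9.78 CPM. Cdkn1c in untreated WWP2-/- replicate 2 was at 15.4 CPM, against 3.04 to 5.68 CPM. Trp53 in untreated WWP2-/- replicate 3, one of the libraries that stand apart, was at 167 CPM, against 108 to 121 CPM. Mdm2 in the same library was at 757 CPM, against 298 to 427 CPM. No difference between the genotype effects with and without TGFb1 passed the test of the interaction.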

How the results depend on the processing

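In TGFb1-treated cells 2 members passed, Cdkn1b and Cdkn2c, and both also with DESeq2, its size factors, a filter of 10 counts in every library, or without both libraries that stand apart. Without a filter 1 passed (Cdkn2c), with only the groups compared 1 (Cdkn2c), and with the replicate block 1 (Cdkn1b, adjusted p = 0.0490, against 0.0626 for Cdkn2c, edgeR). With Xist or the proliferation score as a covariate 0 passed, and with 1 library left out 0 to 3. In untreated cells 0 passed, DESeq2 gave 1, and leaving out 1 library gave 0 to 2. The other comparisons gave 0 members in every fit. Of the 9 relations, 2 passed, 0 within the treated libraries, and 2 to 3 with 1 library left out. Counts over all genes moved as well. In treated cells 1238 genes passed, 2672 with DESeq2, 790 without a filter, 569 with only the groups compared, 660 with Xist and 113 with proliferation as a covariate, and 3454 without both libraries that stand apart. In untreated cells these were 148, 743, 113, 1, 87, 468 and 270. With 1 library left out, the count was 464 (without WT replicate 2) to 2702 (without WT replicate 3) in treated cells and 1 (for any of WT 3, WT 5 and WWP2-/- 1, 4 and 5) to 744 (for WT 4) in untreated cells, so that the shares of all genes set beside the members move as much. DESeq2 gave 27 genes for TGFb1 in WT, 49 in WWP2-/- cells and 10 for the interaction, where edgeR gave 0. The causes were not tested.

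The labels do not say that a replicate number marks a shared culture. Same-numbered libraries deviated from their group means with correlations of −0.54 to 0.50 in WT and −0.24 to 0.32 in WWP2-/- cells. Between genotypes these were −0.01 to 0.46 untreated, with 4 of 5 best with their own number, and −0.50 to 0.14 with TGFb1, with 1 of 5. Since no set of pairs had every correlation over 0.1, the numbers were not taken as pairs. The replicate block gave 670 genes in treated and 1 in untreated cells.

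The signs of small values turned. In treated cells, Cdkn1a was at −0.068 on the log2 scale with the proliferation covariate and at −0.11 to 0.24 with 1 library left out, Cdkn1c at −1.31 to 0.016, and Cdkn2b at 0.13 without both libraries that stand apart and at −0.52 to 0.13. In untreated cells, Cdkn1a was at 0.089 with Xist and 0.14 with proliferation as covariates and at −0.16 to 0.16, and Cdkn2c at 0.082 without both libraries and at −0.26 to 0.10. Untreated Gdf15 was at −0.015 with DESeq2 and with its size factors, −0.0032 without a filter, −0.0082 with the stricter filter, −0.0090 with only the groups compared, −0.98 with Xist, and at −0.40 to 0.55. With the proliferation covariate, Cdkn2c was at 0.21 for TGFb1 in WWP2-/- cells and at 0.00047 for the interaction. The r of Cdkn1a with Ccng1 was 0.26 within treated libraries, 0.71 without both libraries and −0.40 to 0.28 with 1 left out, and that of Mdm2 with Ccng1 was 0.38 without both. With the score, r of Cdkn1b was −0.0196 within untreated libraries and −0.0294 to 0.39, that of Cdkn1c −0.44 and −0.11 to 0.34, that of Cdkn2a 0.15 within treated libraries and −0.22 to 0.0297, and that of Cdkn2b 0.0124 with DESeq2's size factors, 0.0423 within untreated libraries and −0.30 to 0.13. Of the values of single genes and relations with 1 library left out, 519 kept direction and side of the threshold, 79 no longer passed and 4 newly passed, and of the other fits 340, 57 and 1 did so. The lowest value of a member, 1.40 CPM (Cdkn1c), was above the limit of 0.0631 CPM that a count of 0 allows, so that no member was undetected.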
